A study of Mus musculus with 12 samples.

Results

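Oxidative phosphorylation is run by 5 protein complexes of the inner mitochondrial membrane. Complexes I and II take electrons from NADH and succinate, complexes III and IV pass them on to oxygen, and complex V, the ATP synthase, uses the proton gradient built on the way to make ATP. Most subunits are encoded in the nucleus, translated in the cytosol and imported, while a small set is encoded by mitochondrial DNA (mtDNA) and made inside the organelle, so that every complex except complex II needs transcripts of both genomes. Hepatocytes are rich in mitochondria and oxidize alcohol, whose breakdown delivers NADH to them.

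The subunits were chosen by gene symbol among the protein-coding genes of the count table: names starting with Nduf followed by a, b, c, s or v and a number (complex I), Sdha to Sdhd (II), Uqcr or Cyc1 (III), Cox4 to Cox8 (IV), Atp5 (V), and every gene whose name begins with mt-. This gave 103 of the 54232 gene IDs in the table, 90 of them nuclear and 13 encoded by mtDNA. The nuclear genes fell into 37 of complex I, 8 of complex II, 9 of complex III, 18 of complex IV and 18 of complex V. The name pattern for complex II also took in Sdhaf1, Sdhaf2, Sdhaf3 and Sdhaf4, which are assembly factors and not subunits. Ndufa4 and Ndufa4l2 are listed under complex I by their names, although the protein of Ndufa4 is now placed in complex IV.

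Whole liver RNA came from male C57BL6/J mice in an intragastric feeding model of alcohol-associated steatohepatitis (ASH), which the labels list with an age of 8 weeks. The 5 pair-fed (PF) mice received an isocaloric high-fat liquid diet for 8 weeks, and the 7 alcohol-fed (AF) mice received the high-fat diet with alcohol, at 27 g/kg/day by the end, and a weekly binge of 5 g/kg. In this model, per the paper's methods, a solid Western diet rich in saturated fat and cholesterol was eaten freely beside the liquid feeding. The comparison of AF with PF mice asks how liver transcripts differ once alcohol is added to the same fat-rich feeding. The labels name no genetic change, and each mouse gave 1 library.

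Depth ranged from 24129900 to 28594027 counts in PF and from 25099033 to 30578639 counts in AF livers. Levels are given as CPM (counts scaled to a common library size) after TMM scaling, which sets the typical gene level between libraries, and AF was tested against PF by edgeR's quasi-likelihood method on 14168 genes (Benjamini-Hochberg adjustment, threshold 0.05). Over all of these genes, 39.8% were called in either direction, 22.0% as higher and 17.8% as lower in AF livers. The TMM factors ran from 0.832 to 0.901 in PF livers, and were 1.36, 1.04, 1.20, 1.23, 1.15, 0.880 and 0.960 in AF livers 1 to 7. Of 8 hepatocyte markers, 4 were lower in AF livers and none was at 0, with a summed level of 93538 to 136995 CPM in PF and 49417 to 97391 CPM in AF livers. Of 7 stellate cell and fibroblast markers, 5 were higher, with sums of 63.0 to 153 and 126 to 552 CPM, and so were 4 of 7 Kupffer cell and macrophage markers, with sums of 372 to 480 and 464 to 1123 CPM. In bulk tissue, fewer cells of a type and less RNA per cell cannot be told apart.

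Nuclear subunits lay mostly at lower levels in AF livers. Of the 90 nuclear genes, 84 had enough counts to be tested, and 29 of them (34.5%) were lower, against 17.8% of all genes. Only Cox6b2, a gene of very few counts, was higher (1.19%), against 22.0% of all genes. The median log2 fold change was -0.24 (-15.2%), while the median over all genes was 0.04, and 72 of the 84 lay below 0, against 46.8% of all genes. Every AF liver was below every PF liver for Ndufc2, Ndufs3, Ndufv3, Sdhaf3 and Atp5j, 5 of 84, a smaller share than the 9.49% of all genes. Without the 4 assembly factors, 27 of 80 were lower.

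This direction holds relative to other genes and not in raw shares of reads. On library totals without TMM factors, the median of all genes rose to 0.40, 22 nuclear subunits were higher and 0 were lower, and the nuclear median was 0.10. Measured from the median of all genes, the nuclear median was -0.28 with TMM and -0.29 on library totals. The nuclear subunits took 0.809 to 0.859% of all counts in PF livers and 0.814 to 0.923% in AF livers. On this scale the groups overlapped through AF liver 2 alone, and every other AF liver was above all PF livers, at 0.861% or more.

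**Figure D1:**
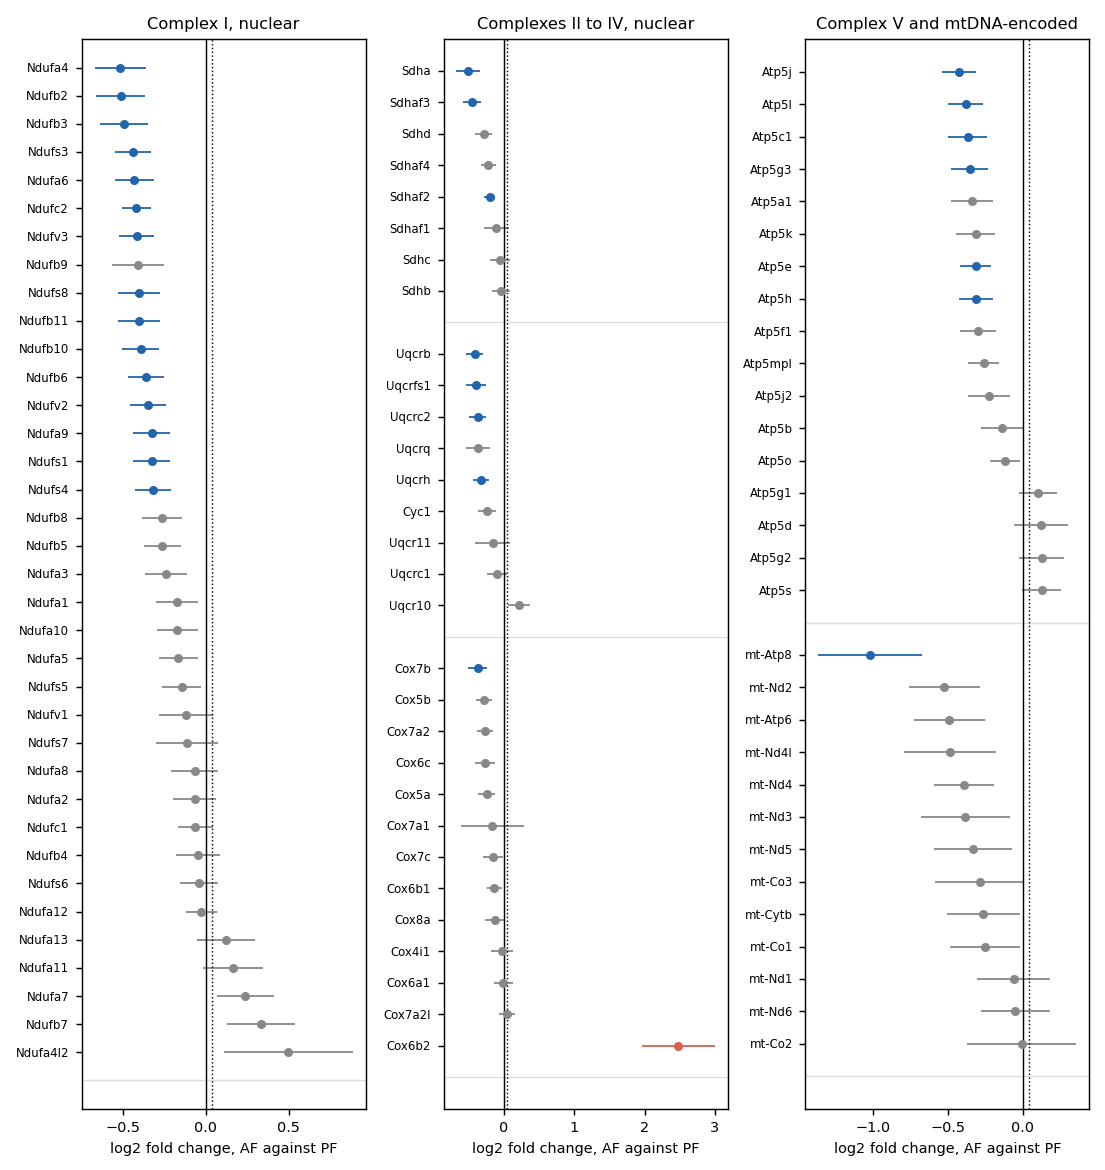
Fitted log2 fold changes of AF against PF livers for 96 of the 97 tested genes, grouped by complex and sorted, with points for the fitted value and bars for 1 standard error (5 PF and 7 AF livers, TMM-scaled counts). Blue marks lower, red higher and grey not called, the solid line marks 0 and the dotted line the median of all genes at 0.04; the 3 panels have different horizontal axes, and 71 of the 83 nuclear and 13 of the 13 mtDNA-encoded genes drawn lie left of 0.

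The AF livers did not move as one. AF livers 1 to 5 stood below the lowest PF liver for 70, 61, 63, 65 and 67 of the 84 nuclear subunits. AF liver 6 did so for 7 and AF liver 7 for 32 of them, and these livers were above the highest PF liver for 34 and 24. How many of all genes lay outside the PF range in each AF liver was not computed. These counts therefore have no background to be read against and do not show a split particular to the subunits. The median log2 ratio of the nuclear subunits to the PF mean was -0.53, -0.28, -0.30, -0.39 and -0.37 in AF livers 1 to 5, 0.10 in AF liver 6 and -0.04 in AF liver 7, and it ran from -0.10 to 0.12 within the PF group. AF livers 6 and 7 were also within the PF range for the hepatocyte marker sum, at 96907 and 97391 CPM, and had the lowest stellate marker sums of the AF group, at 126 and 223 CPM. Their TMM factors were the lowest of the AF group as well. The part of cell composition and scaling in this split was not tested.

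Leaving out single livers moved the count of lower nuclear subunits. It rose from 29 to 45 without AF liver 6. It fell to 12 without PF liver 2, to 16 without PF liver 1, AF liver 1 or AF liver 4, to 17 without AF liver 3 and to 18 without PF liver 5. The remaining fits gave 20 to 33. Of the 30 lower calls among all subunits, 12 held in every one of these 12 fits, namely Ndufa4, Ndufa6, Ndufb2, Ndufb3, Ndufb6, Ndufb10, Ndufc2, Ndufs3, Ndufv3, Sdhaf3, Uqcrb and Atp5j, and the other 18 were lost without at least 1 liver.

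**Figure D2:**
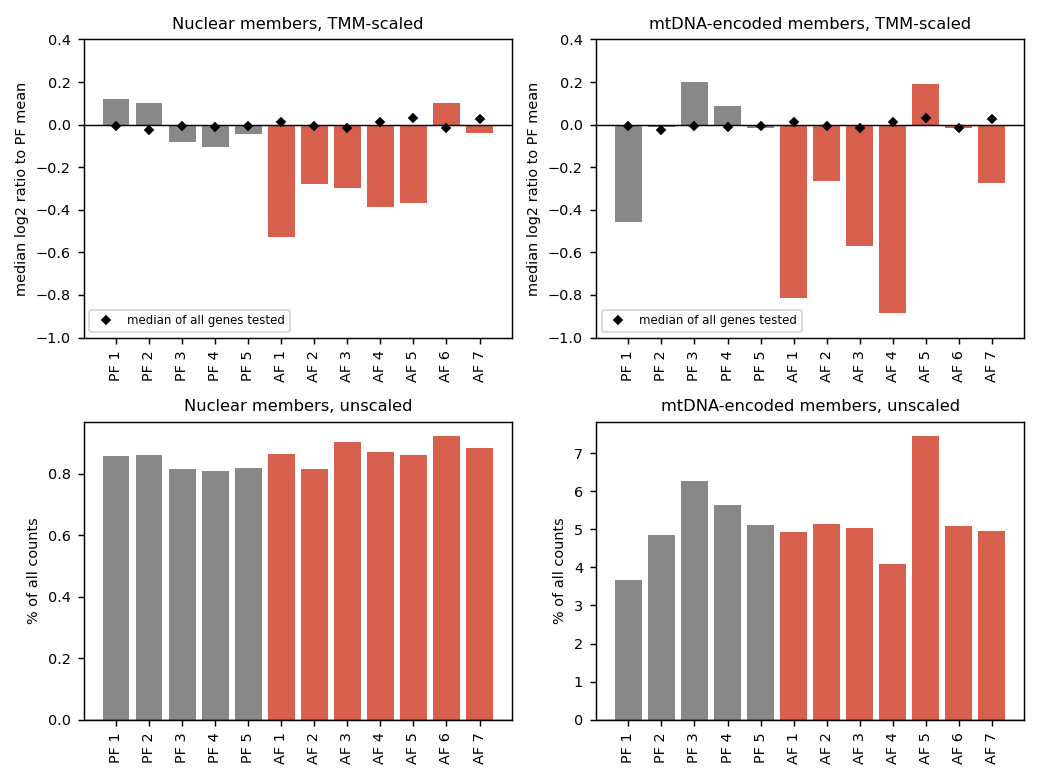
Nuclear (left) and mtDNA-encoded (right) subunits in each liver, with grey bars for PF and red bars for AF livers. The upper panels show the median log2 ratio to the PF mean of TMM-scaled levels with diamonds for the median of all genes tested, and the lower panels show the unscaled share of all counts; AF livers 1 to 5 lie at -0.53 to -0.28 in the upper left panel and AF livers 6 and 7 at 0.10 and -0.04.

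Complex I is the entry point for electrons from NADH. Of its 37 nuclear subunits, 15 were lower (40.5%) and 0 higher, against 17.8% and 22.0% of all genes. The median log2 fold change was -0.24. By subfamily, 3 of 14 Ndufa (21.4%), 5 of 10 Ndufb (50%), 1 of 2 Ndufc (50%), 4 of 8 Ndufs (50%) and 2 of 3 Ndufv genes (66.7%) were lower. The Ndufa share was close to that of all genes. Ndufa4 (ENSMUSG00000029632, chromosome 6, 11900292 to 11907497) was at 333, 330.3, 307, 280.3 and 313 CPM in PF livers 1 to 5 and from 155 to 313 CPM with a median of 223 CPM in AF livers. Only AF liver 6 reached the PF range, and the log2 fold change was -0.52 (SE 0.15, adjusted p = 0.0183). Ndufb2 (ENSMUSG00000002416, chromosome 6, 39592574 to 39603382), an accessory subunit of the membrane arm, was at 38.7, 35.0, 31.7, 26.6 and 31.04 CPM in PF and from 16.3 to 32.5 CPM with a median of 21.8 CPM in AF livers. Again AF liver 6 alone lay within the PF values, with a log2 fold change of -0.52 (SE 0.15, adjusted p = 0.0138). Its exons overlap those of Gm42420 on the same strand and of Braf on the other, so reads there cannot be assigned with certainty.

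Of the 37 nuclear subunits of complex I, 3 separated the groups without overlap, namely Ndufc2, Ndufs3 and Ndufv3. This share was not above that of all genes, of which 9.49% had every AF liver below every PF liver. Ndufc2 (ENSMUSG00000030647, chromosome 7, 97400003 to 97407802), an accessory subunit of the membrane arm, was at 29.8, 33.6, 29.6, 27.6 and 30.5 CPM in PF livers. Its AF livers ran from 18.5 to 25.7 CPM with a median of 23.4 CPM, all lower than any PF liver. The log2 fold change was -0.42 (SE 0.09, adjusted p = 0.00290), and an exact two-sided permutation test of log2(CPM + 0.1) gave p = 0.00126, the smallest that 792 splits allow. Groups without overlap give a p at or near this floor, so it restates the separation and is no further support. Ndufs3 (ENSMUSG00000005510, chromosome 2, 90894634 to 90904827), a core subunit of the arm that passes electrons to ubiquinone, was at 93.4, 88.1, 72.8, 76.2 and 76.8 CPM in PF and from 48.0 to 71.4 CPM with a median of 63.2 CPM in AF livers (log2 fold change -0.44, SE 0.11, adjusted p = 0.00696). Of the 50-base stretches of its transcript, 35.8% also occur in transcripts of other genes, among them the processed pseudogenes Gm12251 and Gm11927. Ndufv3 had a log2 fold change of -0.42 (SE 0.11, adjusted p = 0.00857).

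The subunits that carry the redox centres of complex I did not all pass the test. Ndufs1, which holds iron-sulfur clusters, was at 159.8, 163, 165, 165 and 168 CPM in PF livers and from 105 to 174 CPM with a median of 126 CPM in AF livers. AF liver 6 exceeded all PF livers and the other 6 were below them, with a log2 fold change of -0.33 (SE 0.11, adjusted p = 0.0326). This call was lost without PF liver 2, 3, 4 or 5 or AF liver 1, 3 or 4, where the adjusted p was 0.056 to 0.0644 and the log2 fold change -0.33 to -0.28. Ndufv1, which binds NADH and its flavin, had a log2 fold change of -0.12 (95% interval -0.44 to 0.19, adjusted p = 0.569), with AF livers 1 to 5 below and AF livers 6 and 7 above all PF livers. This interval includes the fitted value of Ndufs1. Among other such subunits, Ndufs8 and Ndufv2 were lower, by -0.40 and -0.35 on the log2 scale, and Ndufs7 was not called (-0.12). Ndufb7, Ndufa7, Ndufa11 and Ndufa13 had fitted values above 0, from 0.12 to 0.33, and none passed the test. The low-level Ndufa4l2, a relative of Ndufa4, was at 0.250 to 0.541 CPM in PF and 0.257 to 1.02 CPM in AF livers (log2 fold change 0.50, adjusted p = 0.320).

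Complex II, succinate dehydrogenase, links the tricarboxylic acid (TCA) cycle to the electron transport chain and is wholly nuclear-encoded. Of its 4 subunits, only the flavin-bearing Sdha (ENSMUSG00000021577, chromosome 13, 74322254 to 74350280) was lower. That is 25% of them, against 17.8% of all genes. Sdha was at 549.8, 631, 558, 595 and 584 CPM in PF and from 296 to 594 CPM with a median of 369 CPM in AF livers. AF liver 6 was within the PF range and the other 6 were below it, with a log2 fold change of -0.50 (SE 0.17, adjusted p = 0.0313). The call held without PF liver 1 or AF liver 2, 6 or 7 and was lost without any other liver, at an adjusted p of 0.0509 to 0.0700 and a log2 fold change of -0.52 to -0.43. Sdhb, the iron-sulfur subunit, was at 118, 124, 101, 103 and 109 CPM in PF and from 82.5 to 139.7 CPM with a median of 101 CPM in AF livers. It had a log2 fold change of -0.04 (95% interval -0.29 to 0.22, adjusted p = 0.834), and AF livers 6 and 7 were above all PF livers. Among the assembly factors, Sdhaf3 had a log2 fold change of -0.46 (SE 0.13, adjusted p = 0.0135) with no overlap between the groups, Sdhaf2 one of -0.20 (SE 0.07, adjusted p = 0.0381), and Sdhaf1 and Sdhaf4 were not called.

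Complex III passes electrons from ubiquinol to cytochrome c. Of its 9 nuclear subunits, 4 were lower (44.4%, against 17.8% of all genes), with a median log2 fold change of -0.33. The Rieske iron-sulfur protein Uqcrfs1 (ENSMUSG00000038462, chromosome 13, 30540308 to 30545362) was at 161, 182, 159.5, 154 and 157 CPM in PF and from 88.8 to 163 CPM with a median of 121 CPM in AF livers. AF liver 6 lay within the PF values and AF liver 7 just under them, and the log2 fold change was -0.40 (SE 0.14, adjusted p = 0.0425). Its call held without AF liver 2, 6 or 7 and was lost without any other liver, at an adjusted p of 0.0613 to 0.09996 and a log2 fold change of -0.42 to -0.33. Uqcrb, a quinone-binding subunit, was at 163, 154, 153, 149 and 167 CPM in PF and from 89.2 to 155 CPM with a median of 116 CPM in AF livers (log2 fold change -0.41, SE 0.12, adjusted p = 0.0145). It shares 19.2% of its 50-base stretches with other transcripts, mostly processed pseudogenes. Uqcrc2 and Uqcrh, a core and a hinge subunit, were lower by -0.37 and -0.33 on the log2 scale. Cyc1, the cytochrome c1 gene, was at 116, 136, 104, 115 and 102 CPM in PF and from 76.4 to 130.2 CPM with a median of 90.6 CPM in AF livers and was not called (log2 fold change -0.24, 95% interval -0.49 to 0.02, adjusted p = 0.160).

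Complex IV, cytochrome c oxidase, had 1 of 13 nuclear genes lower and 1 higher, and a median of -0.16. Both shares (7.69%) were below those of all genes, 17.8% and 22.0%. Cox7b (ENSMUSG00000031231, chromosome X, 106015700 to 106022450), an accessory subunit, was at 151, 150.5, 147, 143 and 142 CPM in PF and from 86.4 to 149.8 CPM with a median of 103 CPM in AF livers. AF livers 6 and 7 were within the PF values and the other 5 below them, and the log2 fold change was -0.37 (SE 0.13, adjusted p = 0.0400). This call held without AF liver 2, 6 or 7 and was lost without any other liver, at an adjusted p of 0.0627 to 0.0769 and a log2 fold change of -0.38 to -0.31. Cox4i1, the common form of subunit 4, was at 169, 180.1, 148, 154 and 152 CPM in PF livers. Its AF livers ran from 124 to 219.9 CPM with a median of 138 CPM, with AF livers 1 to 5 all below and AF livers 6 and 7 all above the PF values. The fitted change of Cox4i1 was -0.02 (95% interval -0.34 to 0.29, adjusted p = 0.915). Cox5a was at 181, 158, 141, 130.5 and 150.2 CPM in PF and from 99.7 to 155 CPM with a median of 134 CPM in AF livers (log2 fold change -0.24, adjusted p = 0.114), and 4 of the AF livers were within the PF range.

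Several subunits of complexes IV and V exist as isoforms that differ between tissues. Cox6b2, known as the testis form of subunit 6b, was the only gene that was higher (ENSMUSG00000051811, chromosome 7, 4751792 to 4753094). It was counted 4, 2, 2, 1 and 1 times in PF livers 1 to 5 and 36, 12, 30, 12, 12, 7 and 8 times in AF livers 1 to 7. This corresponds to 0.0393 to 0.197 CPM in PF and from 0.261 to 0.933 CPM with a median of 0.375 CPM in AF livers, without overlap, where 8.2% of all genes had every AF liver above every PF liver. The fitted log2 fold change was 2.48 (SE 0.52) and rested on 10 counts in the PF group. Cox6b2 passed the count filter only through AF livers 1 to 5, in which it was high, and it failed the filter when any one of these was left out, so its call in this fit is a description. With a filter of at least 1 count in any library, the log2 fold change was 2.48 with an adjusted p of 0.00354. Cox6b1, its widespread counterpart, was at 117 to 147 CPM in PF and 104 to 154 CPM in AF livers and was not called (log2 fold change -0.14, adjusted p = 0.324).

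The other muscle-type or restricted forms were close to absent. Cox4i2 had 2 counts in the 5 PF and 15 in the 7 AF livers, Cox6a2 had 2 and 23, Cox8b had 0 and 3, and Cox7b2 and Cox8c had 0 in both groups, so none was tested. A second gene ID named Atp5o also had 0 counts. Cox7a1, the heart and muscle form of subunit 7a, was at 1.03, 0.366, 0.375, 0.354 and 0.362 CPM in PF and from 0.114 to 0.855 CPM with a median of 0.486 CPM in AF livers, and was not called (log2 fold change -0.16, adjusted p = 0.792). Without PF liver 1, the highest of its group, the value turned to 0.265. Its liver counterpart Cox7a2 was at 116 to 137 CPM in PF and 87.4 to 141 CPM in AF livers (log2 fold change -0.27, adjusted p = 0.0744), and the related Cox7a2l, which acts in supercomplex assembly, had a log2 fold change of 0.04 (adjusted p = 0.784). Cox6a1 and Cox8a had log2 fold changes of -0.01 and -0.13 without passing the test. The sum of 5 brown fat and muscle markers was at most 2.48 CPM in any liver.

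**Figure D3:**
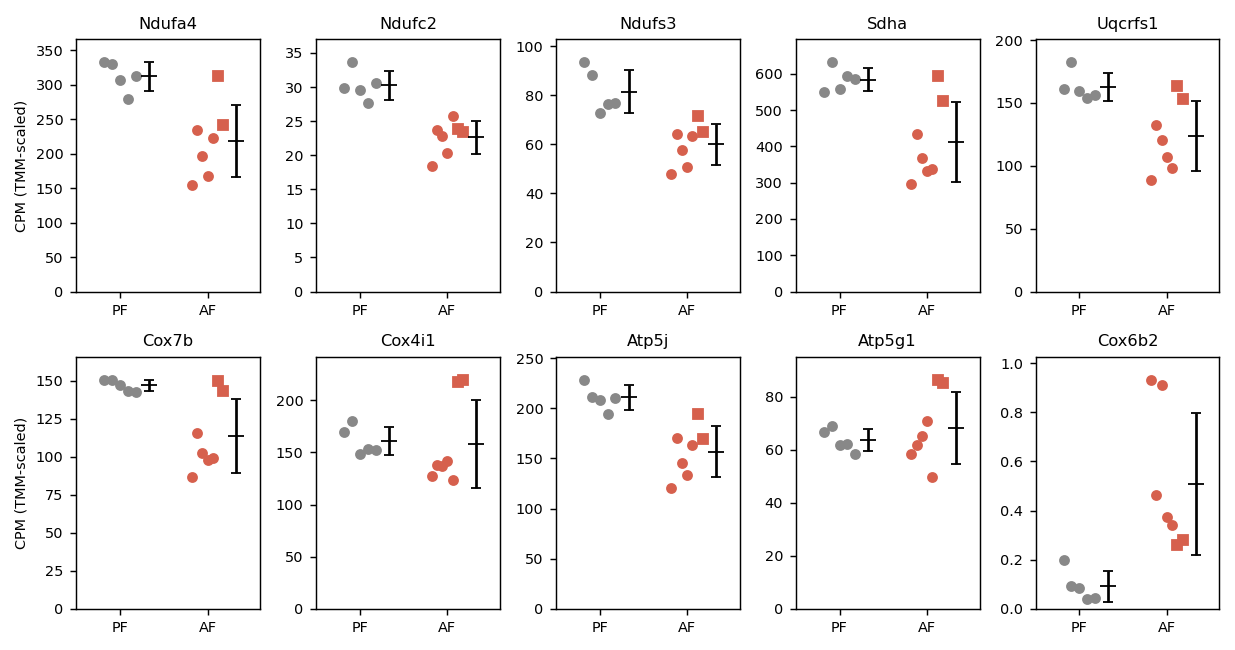
Levels of 10 subunits in each liver, in TMM-scaled CPM on linear axes from 0, with grey points for 5 PF livers, red circles for AF livers 1 to 5 and red squares for AF livers 6 and 7. Black bars give the mean and SD of each group; for Cox4i1 the red circles lie below and the red squares above all grey points, and for Cox6b2 every AF liver lies above every PF liver.

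Complex V had 6 of 17 tested genes lower (35.3%) and 0 higher, against 17.8% and 22.0% of all genes, with a median of -0.30. Atp5j (ENSMUSG00000022890, chromosome 16, 84827866 to 84835625), which encodes coupling factor 6 of the stalk, was at 229, 212, 209, 195 and 211 CPM in PF livers. Its AF livers ran from 121 to 194 CPM with a median of 164 CPM, and no value overlapped with PF. The log2 fold change was -0.43 (SE 0.12, adjusted p = 0.0108). On the opposite strand, 397 bases of its exons are shared with Gabpa, whose log2 fold change was -0.48, and the strand setting of the counting is not given in the sources used here. Atp5l, the membrane subunit g, was at 62.3, 61.5, 54.1, 52.9 and 58.5 CPM in PF and from 34.2 to 59.2 CPM with a median of 44.1 CPM in AF livers (log2 fold change -0.38, SE 0.12, adjusted p = 0.0207). Its adjusted p was 0.0506 without PF liver 2, with a log2 fold change of -0.36. Atp5c1, Atp5e and Atp5h, which encode the gamma, epsilon and d subunits, were lower by -0.37 to -0.31 on the log2 scale.

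The catalytic subunits of the F1 head were not called. Atp5b (beta) was at 1169.8, 1241, 1039, 1107 and 1059.7 CPM in PF and from 860.5 to 1376 CPM with a median of 956 CPM in AF livers. It had a log2 fold change of -0.14 (95% interval -0.41 to 0.14, adjusted p = 0.453), with AF livers 1 to 5 below all PF livers. Atp5a1 (alpha) was at 838, 838, 720.4, 763 and 782 CPM in PF and from 484 to 831 CPM with a median of 592 CPM in AF livers (log2 fold change -0.34, adjusted p = 0.0688). Subunit c of the rotor is made from 3 genes that encode the same mature protein. Atp5g3, by level the main one, was lower (log2 fold change -0.35, SE 0.12, adjusted p = 0.0372), a call lost without PF liver 1, 2, 3 or 5 or AF liver 1, 3 or 4, at an adjusted p of 0.0549 to 0.0868 and a log2 fold change of -0.38 to -0.30. Atp5g1 and Atp5g2 had log2 fold changes of 0.10 (adjusted p = 0.552) and 0.13 (adjusted p = 0.518) and were not called.

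Counts on the mtDNA-encoded subunits exceeded those on all nuclear subunits together in every liver. They took 3.66 to 6.26% of counts in PF (median 5.10%) and 4.10 to 7.46% in AF livers (median 5.03%), and the groups overlapped. All 13 had a fitted log2 fold change below 0 with TMM, with a median of -0.33, but only mt-Atp8 passed the test (7.69%, against 17.8% of all genes), and on library totals 6 of the 13 values were above 0. Leaving out 5 genes with very low counts, whose sequence is almost wholly shared with other transcripts, 1 of 8 was lower (12.5%) and the median was -0.30. The spread between livers was wide. In the AF group, the median log2 ratio of the 13 genes to the PF mean ran from -0.88 in liver 4 to 0.19 in liver 5. Within the PF group it ran from -0.46 in liver 1 to 0.20 in liver 3.

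mt-Atp8, a small subunit of the ATP synthase membrane part (ENSMUSG00000064356, chromosome M, 7766 to 7969), was at 306, 888, 972, 1491 and 819 CPM in PF and from 255 to 863 CPM with a median of 386 CPM in AF livers. Its last bases, from 7927 on, also belong to mt-Atp6 on the same strand, so reads there cannot be assigned with certainty. The groups overlapped, with PF liver 1 at the level of the lower AF livers and AF liver 5 within the PF range. Its log2 fold change was -1.02 (SE 0.35, adjusted p = 0.0324). The call was lost without PF liver 2, 3 or 4 or AF liver 1, 3, 4 or 7, at an adjusted p of 0.0547 to 0.105 and a log2 fold change of -1.03 to -0.76, and with an offset for GC content and length the value was 0.01. mt-Nd2, a subunit of the complex I membrane arm, was at 5464, 7988, 8666, 8575 and 7981 CPM in PF and from 3603 to 7876 CPM with a median of 5653 CPM in AF livers (log2 fold change -0.52, adjusted p = 0.0917). mt-Nd1, encoded just before it on the same strand, was at 5548, 7211, 8893, 7872 and 7482 CPM in PF and from 4738 to 9699 CPM with a median of 6886 CPM in AF livers (log2 fold change -0.06, adjusted p = 0.861).

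The large mtDNA-encoded cores of complexes III and IV were not called either. mt-Cytb, cytochrome b, was at 10009, 13446, 15271, 13860.2 and 12873 CPM in PF and from 7581 to 15711 CPM with a median of 9970.0 CPM in AF livers (log2 fold change -0.26, adjusted p = 0.402). mt-Co1, the haem-copper core of cytochrome c oxidase, was at 14503, 18240.3, 22138, 19444 and 18299.5 CPM in PF and from 11018 to 20363 CPM with a median of 16160.5 CPM in AF livers (log2 fold change -0.25, adjusted p = 0.410). mt-Nd4 and mt-Nd5, which also lie in the membrane arm of complex I, had log2 fold changes of -0.39 (adjusted p = 0.137) and -0.33 (adjusted p = 0.329). mt-Nd6, the only subunit encoded on the other strand, was at 38.6, 51.9, 50.2, 69.6 and 59.1 CPM in PF and from 26.9 to 79.1 CPM with a median of 51.9 CPM in AF livers (log2 fold change -0.05, adjusted p = 0.881).

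Of the 13 genes, 5 had very low counts: mt-Co2, mt-Co3, mt-Atp6, mt-Nd3 and mt-Nd4l together stayed between medians of 1.00 and 7.79 CPM in PF livers, while mt-Co1, read from the same strand, had a median of 18300 CPM. In these 5, 98.0 to 100% of the 50-base stretches also occur in an annotated transcript of another gene, against 0 to 62.2% in the other 8. The other genes are mostly pseudogenes in a block of chromosome 1 where a copy of mtDNA has been inserted. Reads that align to several places are left out by HTSeq unless it is told otherwise, the setting used is not given in the sources used here, and its part in these counts was not tested. The values of these 5 genes are given as counted, with no reading of their transcript levels, and none was called (log2 fold changes from -0.49 to -0.01).

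**Figure D4:**
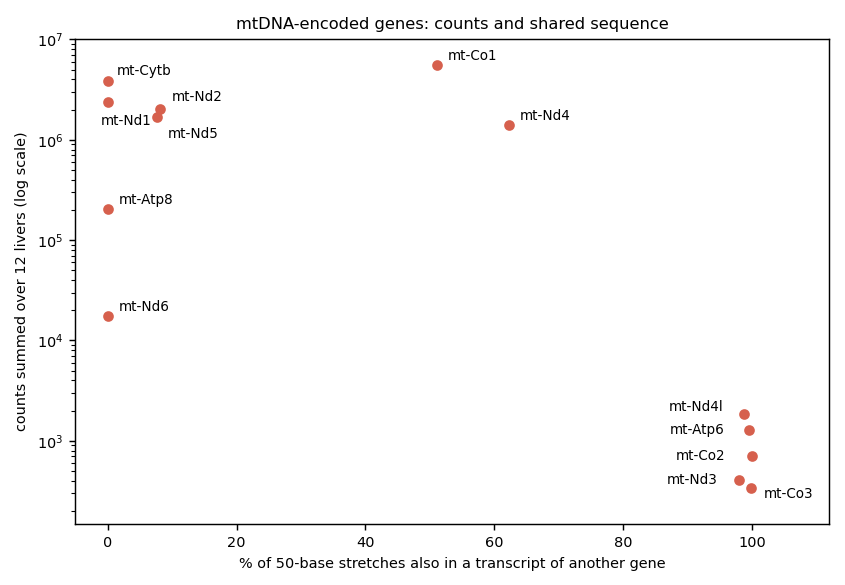
Counts of each mtDNA-encoded gene summed over the 12 livers (log scale) against the percentage of its 50-base stretches that also occur in an annotated transcript of another gene. The 5 genes with 98.0 to 100% shared stretches lie at the bottom right, below every gene that shares 62.2% or less.

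How close these copies are is shown by 60 bases of mt-Nd3, which is nearly all shared, and of mt-Nd2, which is largely unique, each with its copy from GENCODE M21 transcripts (GRCm38), read 5′ to 3′ on the strand of the mtDNA gene. Capitals mark the bases that differ. The mt-Nd3 stretch lies at chrM:9459-9518 and differs from Gm28438 on chromosome 1 by T3C, and the mt-Nd2 stretch lies at chrM:4580-4639 and differs from Gm13339 on chromosome 2 by A2G, C15T, T45C, T60C, written as the mtDNA base, its position from the start of the stretch and the base of the copy. Over 345 aligned bases, mt-Nd3 and its copy differ at 1 position, and over 510 aligned bases mt-Nd2 and its copy differ at 17.
mt-Nd3: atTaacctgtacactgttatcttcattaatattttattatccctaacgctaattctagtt
Gm28438: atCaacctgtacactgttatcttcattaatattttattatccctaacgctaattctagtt
mt-Nd2: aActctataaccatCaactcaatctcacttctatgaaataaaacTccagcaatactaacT
Gm13339: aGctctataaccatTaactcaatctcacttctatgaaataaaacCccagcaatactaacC

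Levels in PF livers were also compared between genes per kilobase of exon. mt-Co1 and mt-Cytb led with 11990.4 ± 1779 and 11444 ± 1694 CPM per kb (mean ± SD, n = 5), which did not differ beyond their spread, followed by mt-Nd1 and mt-Nd2 with 7734 ± 1272 and 7452 ± 1261. In all, 7 of the 13 mtDNA-encoded genes lay above every nuclear subunit, while mt-Nd6 (104 ± 22.1) and the 5 genes of shared sequence did not. The highest nuclear subunits were the F1 head genes Atp5b and Atp5a1 with 265 ± 19.5 and 252 ± 16.1 CPM per kb, within each other's spread, and then Ndufa4 with 226 ± 15.3. Sdhd (163 ± 7.70) and Sdha (142 ± 7.85) stood well above Sdhb (49.5 ± 4.40) and Sdhc (43.3 ± 2.67) of the same complex. Levels within complex I ranged from 0.339 ± 0.117 for Ndufa4l2 and 1.75 ± 0.171 for Ndufb7 to 104 ± 12.1 for Ndufb9 below Ndufa4. These levels divide by the union of all annotated exons, so a gene with long rarely used exons reads low.

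Fold changes of the nuclear subunits went with the base composition of their transcripts. The 29 lower genes had a median GC content of 48.0%, the 54 genes not called one of 51.8%, and the 12 genes with a fold change above 0 one of 54.7%. Across the 84 genes, which share libraries, Spearman's rho of log2 fold change with GC content was 0.40, beside 0.26 over 14157 genes tested with a known GC content. With an offset for GC content and length in each library, 20 of the 84 nuclear subunits were lower and 4 higher. Over all 14168 genes, the same offset gave 3152 lower and 2549 higher, against 2519 and 3116 without it. The nuclear median relative to all genes was -0.13 with the offset, and that of the mtDNA-encoded genes was 0.11. Of the 30 lower calls among all members, 14 remained with this offset, and Uqcrb, which has 40.4% GC, went to 0.09. The part of base composition in the differences was not tested beyond this.

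Nuclear genes of oxidative phosphorylation are known targets of NRF1, GABPA (an ETS factor), ERRA and YY1. In RefSeq promoter windows of GRCm38.p6 (250 bases before to 50 after the start), 70 of the 84 tested nuclear genes were found with 75 windows. The letters searched on both strands were GCGCATGC for NRF1, CCGGAAGT for ETS factors, AAGGTCA for ERRA and AAGATGGC for YY1, none of which contains another. They occurred in 13.3%, 6.67%, 10.7% and 13.3% of the members' windows and in 2.71%, 3.89%, 4.72% and 2.75% of all 32851 windows. At least 1 of them was in 40% of the members' and 13.3% of all windows. Among the 26 lower genes with a window, 2 held the NRF1, 3 the ETS, 4 the ERRA and 3 the YY1 letters.

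Windows of 3 lower genes are shown because together they hold 3 of these motifs, in capitals on either strand: Ndufb2 (chr6:39592315-39592614, plus strand) with AAGGTCA, Ndufs3 (chr2:90904672-90904971, minus strand) with the reverse complement of CCGGAAGT from the start site on, and Atp5l (chr9:44920693-44920992, minus strand) with the reverse complements of GCGCATGC and AAGGTCA. Each reads 5′ to 3′ along its gene, and a match is a description and not a site.
Ndufb2: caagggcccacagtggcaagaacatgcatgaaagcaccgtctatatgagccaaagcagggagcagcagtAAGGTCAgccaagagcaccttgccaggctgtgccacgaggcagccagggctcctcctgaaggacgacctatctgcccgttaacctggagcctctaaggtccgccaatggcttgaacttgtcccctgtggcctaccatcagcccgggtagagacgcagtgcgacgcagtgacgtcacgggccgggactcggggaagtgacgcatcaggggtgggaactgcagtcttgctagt
Ndufs3: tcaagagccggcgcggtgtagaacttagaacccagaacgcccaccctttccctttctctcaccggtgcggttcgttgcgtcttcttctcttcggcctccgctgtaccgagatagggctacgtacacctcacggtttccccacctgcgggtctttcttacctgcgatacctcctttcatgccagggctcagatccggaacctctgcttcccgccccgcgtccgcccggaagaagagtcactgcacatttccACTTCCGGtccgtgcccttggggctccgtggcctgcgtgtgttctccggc
Atp5l: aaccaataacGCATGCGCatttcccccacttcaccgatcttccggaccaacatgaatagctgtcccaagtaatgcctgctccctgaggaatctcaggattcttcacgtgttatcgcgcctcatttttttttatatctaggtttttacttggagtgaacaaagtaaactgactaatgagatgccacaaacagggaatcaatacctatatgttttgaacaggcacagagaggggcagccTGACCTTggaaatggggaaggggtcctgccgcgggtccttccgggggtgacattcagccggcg

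Of 19 tested biogenesis regulators of this programme, 6 were lower (31.6%) and 1 was higher (5.26%), against 17.8% and 22.0% of all genes. Ppargc1a, the coactivator PGC-1alpha, fell, at 19.7 CPM in PF (SD 7.59, n = 5) and 5.33 CPM in AF livers (SD 0.581, n = 7), with every AF liver below every PF liver (log2 fold change -1.89, SE 0.20, adjusted p = 3.29e-05). Ppara, the nuclear receptor of fatty acid oxidation, fell, at 119 CPM in PF (SD 18.5, n = 5) and 47.1 CPM in AF livers (SD 27.0, n = 7), also without overlap (log2 fold change -1.34, SE 0.31, adjusted p = 0.00462). Gabpa was lower (log2 fold change -0.48, SE 0.11, adjusted p = 0.00412), and Ppard was higher (log2 fold change 0.59, SE 0.16, adjusted p = 0.0123). Nrf1 had a log2 fold change of 0.22 (adjusted p = 0.101), Esrra one of 0.35 (adjusted p = 0.0864) and Yy1 one of -0.16 (adjusted p = 0.176).

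Genes that build and maintain the complexes are read against the same shares of all genes, 17.8% lower and 22.0% higher. Of 50 tested assembly factors, which include Sdhaf1 to Sdhaf4, 18 were lower (36%) and 1 was higher, and the complex I factors Ndufaf6 (log2 fold change -0.80, SE 0.17, adjusted p = 0.00306) and Ndufaf1 (log2 fold change -0.76, SE 0.12, adjusted p = 6.45e-04) fell most among those with at least 1 CPM in a group, while Lyrm7, which helps to mature the Rieske protein, rose by 0.62. Of 31 genes of mtDNA maintenance and transcription, 13 were lower (41.9%) and 1 was higher. Polg2, the accessory subunit of the mtDNA polymerase, fell, at 7.82 CPM in PF (SD 1.35, n = 5) and 4.30 CPM in AF livers (SD 0.879, n = 7) (log2 fold change -0.86, SE 0.17, adjusted p = 0.00174), Hsd17b10, part of mitochondrial RNase P, had a log2 fold change of -0.86 (SE 0.21, adjusted p = 0.00630), and the protease Lonp1 rose by 0.78. Mitochondrial ribosome genes had 19 of 77 lower (24.7%) and 3 higher (3.90%), led by Mrpl1 at -0.66 and Mrps27 at -0.60, with Mrps11 and Mrps26 higher by 0.40 and 0.30. The medians of these 3 lists were -0.20, -0.26 and -0.13 with TMM and 0.14, 0.10 and 0.23 on library totals, where the median of all genes was 0.40.

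Of 38 TCA cycle and electron delivery genes, 12 were lower (31.6%) and 4 higher (10.5%), against 17.8% and 22.0% of all genes. Dlat, the acetyltransferase of the pyruvate dehydrogenase complex, fell, at 60.5 CPM in PF (SD 7.17, n = 5) and 32.2 CPM in AF livers (SD 2.89, n = 7) (log2 fold change -0.91, SE 0.09, adjusted p = 2.38e-05), and Coq10b, which handles ubiquinone, had a log2 fold change of -1.50 (SE 0.32, adjusted p = 0.00289). Idh2, the NADP-dependent isocitrate dehydrogenase of mitochondria, rose, at 65.0 CPM in PF (SD 5.33, n = 5) and 138 CPM in AF livers (SD 49.4, n = 7) (log2 fold change 1.09, SE 0.21, adjusted p = 0.00177), with every AF liver above every PF liver, and Mdh2 rose by 0.50. Of 20 nucleotide carriers, uncoupling proteins and other membrane, import and chaperone genes of mitochondria, 3 were lower and 3 higher (15% each). Both shares were below those of all genes. Ucp2, an inner membrane carrier of the uncoupling protein family, rose, at 31.9 CPM in PF (SD 4.92, n = 5) and 69.5 CPM in AF livers (SD 16.2, n = 7) (log2 fold change 1.12, SE 0.17, adjusted p = 4.02e-04), and Slc25a4, an adenine nucleotide carrier, rose by 1.105. Tomm70a, an import receptor, and Opa1, which shapes the inner membrane, had log2 fold changes of -0.56 and -0.36.

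**Figure D5:**
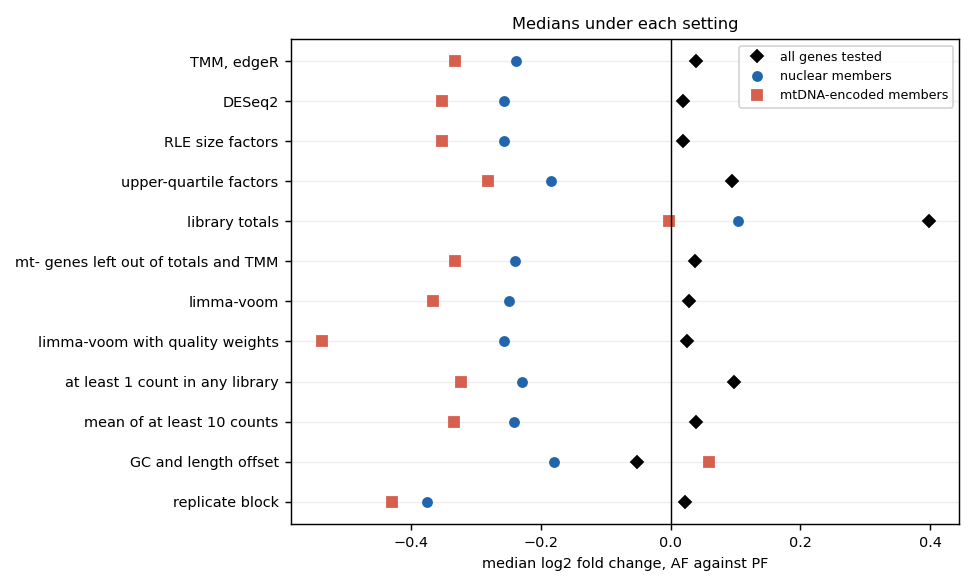
Median log2 fold change of AF against PF livers under each way of processing, for all genes tested (black diamonds), nuclear subunits (blue circles) and mtDNA-encoded subunits (red squares). The nuclear median lies below that of all genes in each of the 12 settings, by -0.40 to -0.13, and the mtDNA-encoded median does so in all but the GC and length offset, where it lies above by 0.11. The -0.40 is from the replicate block, in which AF livers 6 and 7 do not enter the comparison of groups.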

How the data were processed

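RNA of whole liver from 5 PF and 7 AF mice was enriched for poly(A) with oligo(dT) beads and made into stranded libraries. The authors aligned reads to GRCm38 (mm10), and per the labels the tools were FastQC 0.10.1, TopHat2 2.0.13 and HTSeq 0.10.0. They deposited raw counts per Ensembl gene, without normalization. The annotation, strand setting and treatment of multiply aligned reads are not given in the sources used here. Replicates are separate mice. The 31 pairs of libraries within groups differed by at least 21.1 times counting noise, so none was counted as a repeat. PCR reads without molecular identifiers are not independent, so depth covers counting error only.

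Gene IDs were named with GENCODE M21 (54165 of 54232 matched). Counts were tested in R 4.3.3 with edgeR 4.0.16 (TMM, filterByExpr by group, quasi-likelihood test, group as the only term, Benjamini-Hochberg threshold 0.05), and adjusted p values are from this test unless another is named. The steps were tested on simulated data. Single genes were also compared by an exact permutation test over 792 splits. Genes were named by role and by the 2 largest called changes in each direction per complex or list. The values of 1 subunit are not reported here, while counts and medians include it. For shared sequence, all stretches of 50 bases of a gene's longest transcript were looked up in transcripts of genes elsewhere. The genes and lists were chosen with earlier results of these data known.

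Alternatives were DESeq2 1.42.0, limma 3.58.1 (voom, with and without quality weights), RLE and upper-quartile factors, library totals, mt- genes left out of scaling, 2 other filters, an offset for GC content and length (mgcv 1.9.3), the replicate number as a block, and leaving out each library. In the block, AF livers 6 and 7 had no same-numbered PF liver and formed a level of their own, so they did not enter the comparison of groups. The authors' other experiments were not used here.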

Additional observations from a re-analysis of the deposited data

Results flagged for a closer look

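In 7 of 94 groups of values, 1 liver stood apart from its group by Dixon's test at 95%, where chance flags about 1 in 20, or 4.7 groups. PF liver 1 had 5464 CPM of mt-Nd2, below the other 4 PF livers, and 1.03 CPM of Cox7a1, above them. PF liver 2 had 182 CPM of Uqcrfs1, the highest of its group. AF liver 5 had 863 CPM of mt-Atp8, 7.46% of its counts on mtDNA-encoded genes and an mtDNA to nuclear ratio of counts of 8.66, each the highest of the AF group. AF liver 6 had 141 CPM of Cox7a2, also the highest of the AF group. The cause was not tested in any of these.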

How the results depend on the processing

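On library totals, 6458 of all genes were higher and 938 lower, against 3116 and 2519 with TMM. Nuclear subunits then had 22 higher and 0 lower (complex I 8 and 0, II 2 and 0, III 2 and 0, IV 5 and 0, V 5 and 0), mtDNA-encoded genes had 0 lower, and the lists of assembly factors, mtDNA maintenance and carriers had 11, 7 and 12 calls, against 19, 14 and 6. Fitted values below 0 turned above 0 on library totals for 47 of 72 nuclear and 6 of 13 mtDNA-encoded subunits, among them 7 of the 29 lower nuclear calls (Atp5e, Atp5h, Ndufa9, Ndufs1, Ndufs4, Sdhaf2 and Uqcrh), and the medians of all 6 lists turned too (0.10 to 0.31). The nuclear median was then 0.10, Ndufs1 was at 0.011, and Sdhb, Cox4i1, Cox6a1 and Cox6b1 were called higher, at 0.30, 0.30, 0.33 and 0.21. With the GC and length offset, 4 nuclear subunits were higher (1 each in complexes I, III and V beside Cox6b2), complex III had 2 and complex IV 0 lower, and mtDNA-encoded genes had 1 higher and 0 lower. Their median was then 0.06 and 0.11 relative to all genes, with mt-Nd6 at 0.60, mt-Atp8 at 0.01 and Uqcrb at 0.091. Quality weights in limma-voom gave 45 lower nuclear and 8 lower mtDNA-encoded subunits (complex IV 4, complex V 11) and 29 assembly factors, and voom without weights gave 0 lower mtDNA-encoded genes. DESeq2 gave 3 lower mtDNA-encoded genes, 2 in complex IV and 10 in complex V. Upper-quartile factors gave 2 lower in complex III, 0 in IV and 3 in V. A filter of at least 1 count in any library left 16 lower nuclear subunits (complex II 1, III 1, IV 0, V 2) and 8 calls in mtDNA maintenance. The numbers of the mice pair no samples by the labels, and same-numbered livers had correlations of deviations from -0.07 to 0.12 over the 5 pairs. In the replicate block, AF livers 6 and 7 formed a level of their own without a PF liver. That fit therefore compared AF livers 1 to 5 alone with the same-numbered PF livers. There, 52 nuclear (complex I 23, III 8, IV 7, V 10) and 2 mtDNA-encoded subunits were lower. Leaving out 1 library gave 0 to 1 higher and 12 to 45 lower nuclear subunits, 0 to 2 lower mtDNA-encoded genes, and lower calls of 9 to 20 in complex I, 1 to 4 in II, 1 to 6 in III, 0 to 5 in IV and 1 to 10 in V. The cause of these moves was not tested. At 24129900 counts or more per library, genes with a few counts, such as Cox4i2, could not be compared.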

Other observations

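The ratio of counts between mtDNA-encoded genes needs no scaling between libraries. Among the 8 genes that share at most 90% of their 50-base stretches with other transcripts, 2 of 28 ratios separated the groups, both with mt-Nd1. Counts of mt-Nd1 over mt-Nd2 ran from 0.903 to 1.03 in PF livers (median 0.937) and from 1.12 to 1.63 in AF livers (median 1.33). Counts of mt-Nd1 over mt-Nd4 ran from 1.34 to 1.56 in PF livers (median 1.51) and from 1.66 to 2.31 in AF livers (median 1.75). These pairs were singled out after their values were seen, and the ratios share genes and livers. How many ratios between other genes separate the groups was not computed, so 2 of 28 has no background to be read against. Among single genes, 9.49% had every AF liver below and 8.2% every AF liver above every PF liver.

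The mitochondrial ribosomal RNA genes, which poly(A) enrichment captures only in part, set AF livers 6 and 7 apart. For mt-Rnr1 these livers had 1349 and 1351 CPM, while the other AF livers had 289 to 632 CPM and PF livers 557 to 919 CPM. For mt-Rnr2 they had 1371 and 1208 CPM, against 420 to 800 CPM and 711 to 1135 CPM.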
